A study of Homo sapiens with 95 samples.

Results

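Cornified envelope genes are the genes whose products build, or are made alongside, the tough protein shell of squamous epithelial cells. The 10 followed here, found by symbol in 95 count files, were SPRR1A, SPRR1B, SPRR2A, SPRR2D, SPRR3, IVL, TGM1, CNFN, KLK10 and SERPINB2, or 10 of the 27978 genes listed. They were chosen by measured values, since SPRR1B had the largest fall of any gene when CSC-treated PIK3CA cells were set against CSC-treated HcRed cells. Values of that contrast are therefore given as a description, and tests were run on the other samples. For PIK3CA against HcRed these are samples of the same lines, so that test is not independent of the choice. The cells were AALE, a bronchial epithelial line of human origin that had been immortalized and that every group shares. Overexpression of PIK3CA, NRF2 (the gene NFE2L2), FGFR1 or NRG1 was compared with an empty vector carrying the reporter HcRed. CRISPR knockouts of FAT1 or CDKN2A were compared with cells that received the Cas9-EGFP plasmid (GFP) without any guide. Each of these 8 lines was exposed to DMSO, to 24 µg/ml cigarette smoke condensate (CSC), to 173 µM benzo[a]pyrene (BaP) or to 490 µM NNK, a tobacco-specific nitrosamine. Each combination had 3 samples, except CSC-treated FGFR1 cells with 2. The promoters of the overexpression vectors, the time of exposure and whether a line is a clone were not given in the sources used here. Replicates are wells of 1 line as far as the labels show, so p-values measure the spread between these samples.

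The cornified envelope forms beneath the membrane of a squamous cell late in its differentiation. Involucrin, the product of IVL, is laid down early as a scaffold, and the small proline-rich proteins encoded by the SPRR genes act as cross-bridges. TGM1 encodes transglutaminase 1, the enzyme that joins these proteins to each other by covalent bonds, and CNFN encodes cornifelin, a smaller envelope component. KLK10 encodes a secreted serine protease of the kallikrein family, and SERPINB2 encodes a serine protease inhibitor found in keratinocytes and in several other cell types. In the airway SPRR1B, IVL and TGM1 are known as markers of squamous metaplasia, a change that smoke exposure can bring about in bronchial epithelium. The SPRR genes and IVL lie side by side in the epidermal differentiation complex on chromosome 1.

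In GRCh37 coordinates, the build called hg19 to which the reads were aligned, IVL lies at chr1:152881022-152884362, SPRR1A at chr1:152956557-152958290, SPRR3 at chr1:152974223-152976332 and SPRR1B at chr1:153003679-153005376, all on the plus strand. SPRR2D at chr1:153012208-153014407 and SPRR2A at chr1:153028596-153029988 follow on the minus strand. Each of these 6 genes has 2 exons. TGM1 with 15 exons is at chr14:24718320-24733638 (minus), CNFN at chr19:42891171-42894449 (minus), KLK10 at chr19:51515995-51523431 (minus) and SERPINB2 at chr18:61538926-61571122 (plus). Since SPRR1A and SPRR1B are close copies, their coding sequences are shown, as GENCODE gives them for GRCh37, to let a reader see how far reads can separate them. Capitals mark the 10 of 270 positions at which they differ.
SPRR1A: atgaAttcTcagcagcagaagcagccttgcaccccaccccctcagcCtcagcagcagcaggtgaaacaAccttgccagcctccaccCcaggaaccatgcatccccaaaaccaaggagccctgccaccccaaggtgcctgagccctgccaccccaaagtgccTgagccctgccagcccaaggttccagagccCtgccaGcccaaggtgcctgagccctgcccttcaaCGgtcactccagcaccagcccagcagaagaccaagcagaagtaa
SPRR1B: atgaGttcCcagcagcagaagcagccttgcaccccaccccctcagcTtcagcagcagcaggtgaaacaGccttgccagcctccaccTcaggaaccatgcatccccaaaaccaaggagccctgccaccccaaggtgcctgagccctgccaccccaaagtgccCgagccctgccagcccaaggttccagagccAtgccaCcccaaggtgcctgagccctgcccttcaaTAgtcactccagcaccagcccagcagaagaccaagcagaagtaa
The 2 coding sequences were 96.3% identical, yet no stretch of 75 bases, the read length, was shared between the transcripts. A full-length read without errors thus differs between them, in places by a single base at its end. Whether trimmed or imperfect reads were told apart was not tested. For SPRR2A and SPRR2D, 25.2% and 16.3% of the 75-base windows of the transcript were shared with other SPRR2 copies, so their counts may be split and are uncertain. For SERPINB2 and KLK10 the shared windows were 25.9% and 3.40%, in each case with an overlapping annotated gene without a symbol.

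The promoters of 4 members on chromosome 1 are shown because their highest means over 4 treatments were in HcRed and NRF2 cells. The sequences are those of RefSeq on GRCh38.p14, 300 bases each, the last 50 of them after the start of the gene, a different build from that of the counts. Capitals mark matches to the AP-1 motif TGANTCA and to the TATA motif TATAAA, each searched on both strands.
SPRR1A (chr1:152983831-152984130, plus): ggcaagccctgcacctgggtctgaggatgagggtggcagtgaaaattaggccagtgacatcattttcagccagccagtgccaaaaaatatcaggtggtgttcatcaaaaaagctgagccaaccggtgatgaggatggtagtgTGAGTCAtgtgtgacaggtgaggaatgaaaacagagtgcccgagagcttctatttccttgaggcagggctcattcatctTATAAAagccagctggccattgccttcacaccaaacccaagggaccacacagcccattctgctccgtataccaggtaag
SPRR1B (chr1:153030953-153031252, plus): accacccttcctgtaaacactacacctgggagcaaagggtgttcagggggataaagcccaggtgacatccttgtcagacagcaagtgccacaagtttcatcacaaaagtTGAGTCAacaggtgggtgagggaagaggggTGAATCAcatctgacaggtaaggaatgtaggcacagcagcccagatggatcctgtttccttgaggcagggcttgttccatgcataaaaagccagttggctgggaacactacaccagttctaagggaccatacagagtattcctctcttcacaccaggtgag
SPRR3 (chr1:153001499-153001798, plus): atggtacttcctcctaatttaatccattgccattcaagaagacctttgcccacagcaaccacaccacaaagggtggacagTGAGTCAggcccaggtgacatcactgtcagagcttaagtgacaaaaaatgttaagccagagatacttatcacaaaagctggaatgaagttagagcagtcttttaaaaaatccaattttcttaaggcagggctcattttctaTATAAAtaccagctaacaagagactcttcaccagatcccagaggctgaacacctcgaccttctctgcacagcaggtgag
IVL (chr1:152908296-152908595, plus): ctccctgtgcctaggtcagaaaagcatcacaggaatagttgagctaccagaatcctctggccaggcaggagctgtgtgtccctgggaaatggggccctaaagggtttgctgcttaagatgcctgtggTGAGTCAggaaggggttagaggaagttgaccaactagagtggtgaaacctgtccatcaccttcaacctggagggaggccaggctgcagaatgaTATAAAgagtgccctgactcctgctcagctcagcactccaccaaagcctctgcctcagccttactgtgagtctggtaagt
Promoters of 8 of the 10 members were in the table, all but SPRR2D and TGM1. TGANTCA was found in 6 of the 8 (SPRR1A, SPRR1B, SPRR2A, SPRR3, IVL and SERPINB2) and in 7.71% of all 35116 promoters. SPRR1B held 2 copies, starting 141 and 111 bases before the start of the gene. TATAAA was found in 5 of the 8 and in 11.5% of all promoters, and SPRR1B was not among the 5. The antioxidant response core TGACNNNGC and the xenobiotic response core GCGTG were found in CNFN alone, against 13.3% and 36.5% of all promoters. A match describes these letters in this window and is not evidence of binding.

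Counted reads per sample ranged from 287446 to 2116383 with a median of 934235, and all 94 pairs of replicates differed by more than the sampling noise of reads. The perturbed gene followed its label in every line. NFE2L2, FGFR1, NRG1 and PIK3CA were higher in each sample of their line than in any HcRed sample, and FAT1 and CDKN2A were lower in each knockout sample than in any GFP sample, though reads of both remained. The summed level of 9 basal airway epithelial markers was between 3941 and 9435 CPM, the unit in which reads are scaled to a common library size, while 5 ciliated markers summed to between 0 and 10.3 CPM and 5 secretory markers to between 0 and 6.95 CPM. The 5 fibroblast markers summed to between 8.18 and 66.9 CPM and 4 blood cell markers to between 0 and 38.8 CPM. Of these 4, CD68 had 1397 reads and PTPRC had 7, and CD3E and HBB had no read in any sample.

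The cornified envelope genes were at the lower end of what these libraries could measure. Over 95 samples TGM1 had 859 reads and was found in 95 samples, SERPINB2 had 836 reads in 90, KLK10 had 434 in 81 and SPRR1B had 385 in 64. CNFN (116 reads in 59 samples), IVL (62 in 31), SPRR1A (55 in 24), SPRR3 (40 in 20), SPRR2A (19 in 14) and SPRR2D (18 in 15) were rarer. No member reached a mean of 10 reads per sample. Per kilobase of transcript the mean level over the 95 samples was highest for SPRR1B at 6.97 ± 9.88 CPM per kb (SD, n = 95), followed by SERPINB2 (4.81), TGM1 (3.69), CNFN (2.52) and KLK10 (1.76), and the others were below 1. The SD of SPRR1B exceeded its mean, and its level differed widely between lines. These values are bulk levels, in which fewer cells that express a gene and less RNA per expressing cell cannot be told apart.

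**Figure D1:**
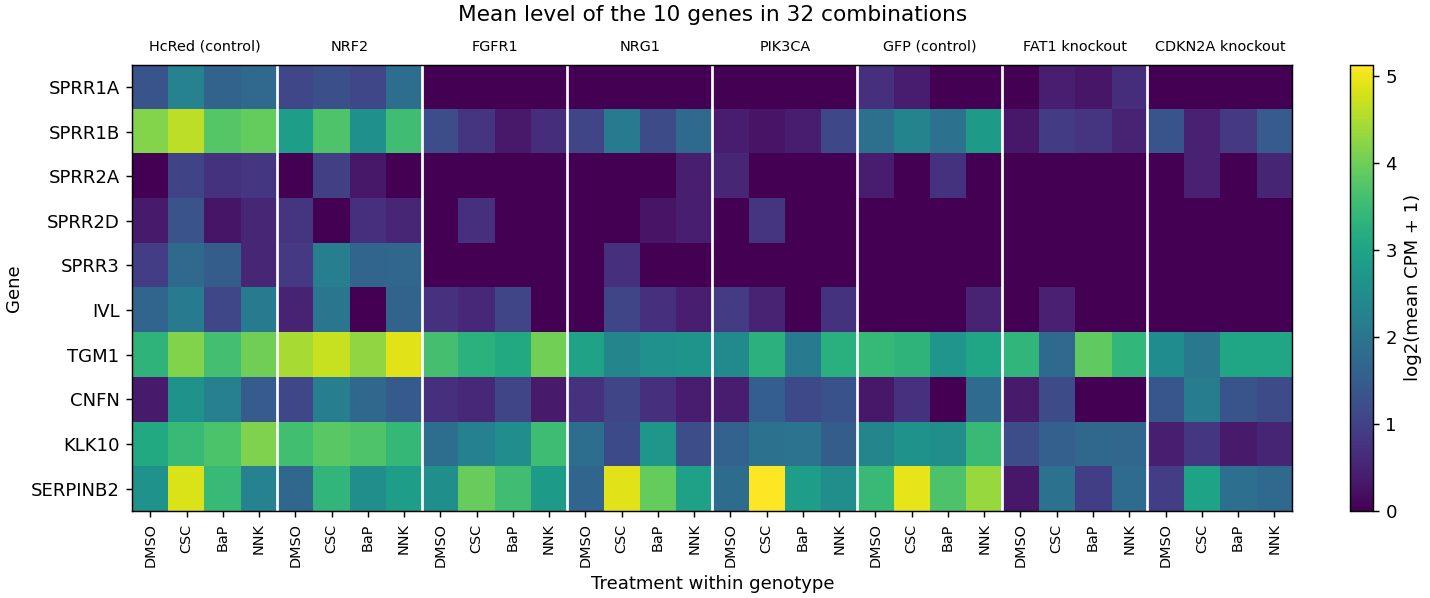
Mean level of each cornified envelope gene in the 32 combinations of line and treatment, shown as log2 of CPM plus 1. Brighter cells are higher. SPRR1B, SPRR1A and SPRR3 are brightest in HcRed and NRF2 cells, TGM1 is brightest in NRF2 cells, and SERPINB2 is brightest with CSC in each line.

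In the contrast that brought SPRR1B forward, the 3 CSC-treated HcRed samples held 30, 36 and 20 reads of SPRR1B, or 24.8, 25.4 and 20.1 CPM. The 3 CSC-treated PIK3CA samples held 0, 0 and 1 read, or 0, 0 and 0.626 CPM. The fitted log2 difference was -5.19, and that of SPRR1A was -3.24, of SPRR3 -2.59 and of IVL -2.54. SERPINB2 differed by 0.26 on the same log2 scale, with the PIK3CA samples at 42.4, 37.1 and 22.5 CPM and the HcRed samples at 19.9, 22.5 and 40.2 CPM. These values chose the genes and are not tested.

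SPRR1B was highest in HcRed cells, followed by NRF2 cells. Over 4 treatments its mean was 16.8 ± 5.32 CPM in HcRed cells (SD, n = 12), 8.56 ± 5.16 in NRF2 cells, 3.86 ± 2.13 in GFP cells and 2.01 ± 2.14 in NRG1 cells. CDKN2A (1.1), FGFR1 (0.727), FAT1 (0.560) and PIK3CA (0.510) cells followed. The CSC-treated HcRed and PIK3CA samples in these means took part in the choice of the gene. Over DMSO, BaP and NNK alone the means were 14.6 ± 3.89 CPM in HcRed and 7.34 ± 3.90 CPM in NRF2 cells (SD, n = 9), and FAT1 cells at 0.464 CPM were below PIK3CA cells at 0.611 CPM. With or without CSC, the gap between HcRed and NRF2 cells was larger than the larger of their SDs, and no other neighbours in the order differed beyond their spread. Every HcRed sample, from 9.96 to 25.4 CPM, lay above every sample of the other lines except NRF2, whose samples ranged from 2.38 to 18.6 CPM.

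**Figure D2:**
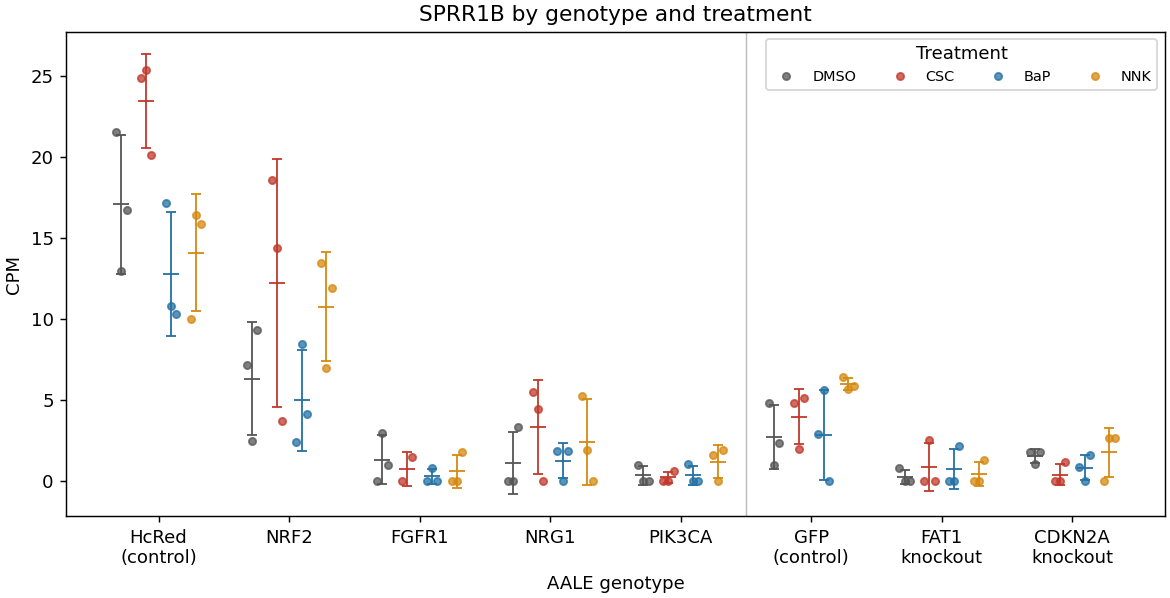
SPRR1B in CPM of each sample by line, coloured by treatment, with the mean and SD of the 3 samples (2 for CSC-treated FGFR1 cells) of each combination. HcRed samples lie between 9.96 and 25.4 CPM and PIK3CA samples between 0 and 1.88 CPM.

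SPRR1A, SPRR3 and IVL also had their highest means over 4 treatments in HcRed and NRF2 cells, at lower levels. SPRR1A had 33 reads in the 12 HcRed samples, 16 in the 12 NRF2 samples, 3 each in GFP and FAT1 samples and none in PIK3CA, FGFR1, NRG1 or CDKN2A samples. SPRR3 had 22 reads in NRF2 and 17 in HcRed samples, and 1 read in all the other lines together, in an NRG1 sample treated with CSC. IVL had 29 reads in HcRed and 13 in NRF2 samples, at most 7 in each of PIK3CA, FGFR1 and NRG1 cells, 1 each in GFP and FAT1 cells and none in CDKN2A cells. The mean of IVL was 2.51 ± 1.42 CPM in HcRed and 1.40 ± 1.78 CPM in NRF2 cells (SD, n = 12), which did not differ beyond their spread. Over DMSO, BaP and NNK alone IVL had 17 reads in HcRed samples and 6 each in NRF2 and PIK3CA samples. With or without CSC, IVL in NRF2 cells did not exceed that in the next line, FGFR1, beyond the spread. SPRR2A and SPRR2D had 8 reads each in HcRed samples and at most 5 in any other line, too few to test in any comparison.

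TGM1, the cross-linking enzyme, was ordered differently. Its mean was 23.3 ± 5.79 CPM in NRF2 cells (SD, n = 12), beyond the spread of the next line, HcRed, at 13.0 ± 4.5 CPM. FGFR1 (11), FAT1 (8.73), GFP (7.86), PIK3CA (6.32), CDKN2A (5.57) and NRG1 (5.29) cells came after, with no neighbours separated beyond their spread. KLK10 had nearly the same mean in HcRed and NRF2 cells, at 11.5 ± 4.85 and 11.4 ± 5.08 CPM. GFP cells at 6.03 ± 3.14 CPM were below both by more than the spread, but over DMSO, BaP and NNK alone the gap between NRF2 (10.9 ± 4.84) and GFP cells (6.31 ± 3.62) was within it. CDKN2A cells were lowest, with 6 reads over 12 samples and a mean of 0.457 ± 0.697 CPM. CNFN was at 2.75 ± 2.5 CPM in HcRed cells and between 0.392 and 2.20 CPM in the other lines, and its lines overlapped throughout.

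SERPINB2 did not share the pattern of the SPRR genes. GFP cells were highest at 17.7 ± 9.90 CPM (SD, n = 12) and FAT1 cells lowest at 1.61 ± 1.65 CPM. NRG1 (12.9), PIK3CA (11.9), HcRed (11.7), FGFR1 (8.48), NRF2 (5.73) and CDKN2A (3.22) cells lay between them. Over the 32 means of line and treatment, the Pearson correlation with SPRR1B was 0.88 for SPRR1A, 0.77 for IVL, 0.77 for SPRR3, 0.73 for KLK10, 0.57 for TGM1 and 0.26 for SERPINB2. These points share libraries and depth, and the coefficients are a description. Among 10062 genes outside the members with a mean of at least 10 reads per sample, those most like SPRR1B over the 32 means were TMEM63C (0.80), KRT17 (0.75), TIMP3 (0.71), KLF5 (0.67) and KRT16 (0.67). KRT16 and KRT17 encode keratins of activated and stratified epithelium, and KLF5 encodes a transcription factor of epithelial cells.

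**Figure D3:**
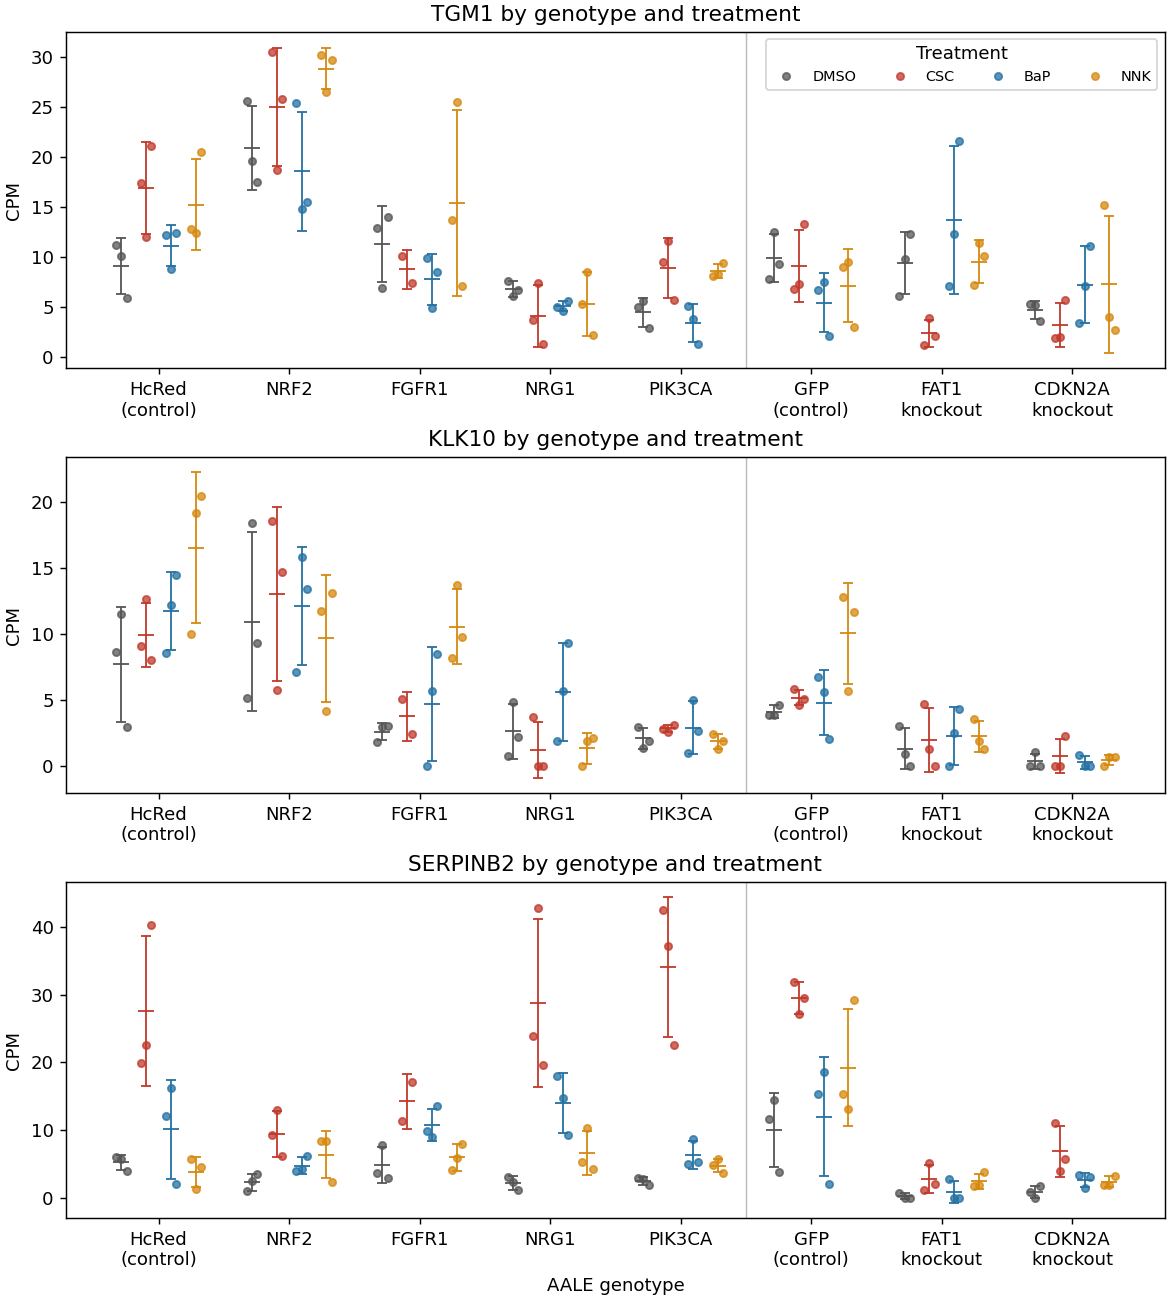
TGM1, KLK10 and SERPINB2 in CPM of each sample by line, coloured by treatment, with the mean and SD of each combination. TGM1 has its highest mean in NRF2 samples, KLK10 in HcRed and NRF2 samples, and in each line the highest SERPINB2 sample was treated with CSC.

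The first comparison asked whether the fall of the envelope genes with PIK3CA, the catalytic subunit of a phosphoinositide kinase, was also present outside CSC. Its samples are of the lines in which SPRR1B was chosen, so the p-values below are not independent of that choice. Over DMSO, BaP and NNK, SPRR1B, SPRR1A, IVL, TGM1 and KLK10 were all lower in PIK3CA than in HcRed cells. SPRR1B was at 0, 0 and 1.88 CPM (lowest, median and highest of 9) in PIK3CA cells and at 9.96, 15.9 and 21.5 CPM in HcRed cells, 5 reads against 122. The groups did not overlap. The log2 difference was -4.20 (SE 0.41, 95% interval -5.01 to -3.39, limma adjusted p = 3.97e-13), and it was -4.90 with DMSO, -3.98 with BaP and -3.85 with NNK when each treatment was fitted alone (adjusted p = 1.70e-05, 0.000160 and 1.64e-05). SPRR1A had 19 reads in HcRed cells and none in PIK3CA cells, so its level was at least 7.55-fold higher in HcRed cells, taking 3 reads over the group as the floor (limma adjusted p = 0.000311).

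KLK10 was at 1.01, 1.89 and 5.0 CPM (lowest, median and highest of 9) in PIK3CA cells against 2.95, 11.5 and 20.4 CPM in HcRed cells. A single HcRed sample lay within the PIK3CA range, and the log2 difference was -2.17 (SE 0.34, adjusted p = 6.76e-07). TGM1 was at 1.31, 5.07 and 9.39 CPM against 5.90, 12.2 and 20.4 CPM, with a log2 difference of -1.05 (SE 0.26, adjusted p = 0.00167). IVL, with 6 reads against 17, had a log2 difference of -1.45 (SE 0.46, adjusted p = 0.0147), a call that DESeq2 did not give (adjusted p = 0.0691, and 0.000251 to 0.0691 over 8 alternatives). CNFN (log2 difference -0.81, adjusted p = 0.264) and SERPINB2 (-0.52, adjusted p = 0.279) did not pass the threshold. Of the 7 members tested, SPRR1A, SPRR1B, IVL and CNFN passed the filter on low counts through HcRed cells alone, so that the filter favoured a lower value in PIK3CA cells and their calls are left out of the count. Of the 3 that averaged more than 1 read in both lines, KLK10 and TGM1 were lower, where 10.2% of all genes tested were. SPRR2A, SPRR2D and SPRR3 were not tested.

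In NRF2 cells SPRR1B fell and TGM1 rose against HcRed cells, and the other 6 members tested did not pass the threshold. SPRR1B was at 2.38, 7.16 and 13.4 CPM (lowest, median and highest of 9) against 9.96, 15.9 and 21.5 CPM in HcRed cells. The log2 difference was -1.15 (SE 0.26, adjusted p = 0.000651). TGM1 went from 5.90, 12.2 and 20.4 CPM in HcRed cells to 14.8, 25.4 and 30.2 CPM, a log2 difference of 0.98 (SE 0.20, adjusted p = 8.04e-05). Of the 6 members averaging more than 1 read in both lines, SPRR1B was the one called lower and TGM1 the one called higher, where 9.83% and 9.53% of all genes tested were lower and higher. The differences were -0.07 for KLK10 (95% interval -0.58 to 0.44), -0.02 for CNFN (-0.94 to 0.90), -0.31 for SPRR1A (-1.24 to 0.62), 0.53 for SPRR3 (-0.44 to 1.5) and -1.27 for IVL (-2.22 to -0.31, adjusted p = 0.0552). SERPINB2 differed by -0.70 (adjusted p = 0.157, or 0.0415 without the BaP-treated HcRed replicate 3). IVL was called lower in 5 of 18 fits without 1 sample, with adjusted p down to 0.0232. IVL passed the filter through HcRed cells alone and SPRR3 through NRF2 cells alone. With intervals this wide, a member that was not called may still have changed.

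FGFR1, a receptor tyrosine kinase, and NRG1, a ligand of ERBB receptors, were each compared with the same HcRed samples, so that these comparisons are not independent of each other. In FGFR1 cells SPRR1B was at 0, 0 and 2.94 CPM (lowest, median and highest of 9), below every HcRed sample, with a log2 difference of -3.63 (SE 0.39, adjusted p = 2.29e-11). SPRR1A had no read in the 9 FGFR1 samples, at least 5.91-fold below HcRed (adjusted p = 0.00623). IVL (-1.51, SE 0.51, adjusted p = 0.0434) and KLK10 (-0.89, SE 0.29, adjusted p = 0.0340) were also called lower. KLK10 was the 1 call among the 3 members that averaged more than 1 read in both lines, where 4.51% of all genes tested were lower. SPRR1A, SPRR1B, IVL and CNFN passed the filter through HcRed cells alone and are left out of that count. The calls of IVL and KLK10 depended on single samples, as IVL was called in 5 of 16 fits without 1 sample (adjusted p up to 0.105, and DESeq2 gave 0.110) and KLK10 in 8 of 18 (up to 0.0701). TGM1 differed by -0.20 (95% interval -0.68 to 0.28) and SERPINB2 by 0.07 (-0.52 to 0.66).

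In NRG1 cells SPRR1B was at 0, 1.86 and 5.25 CPM (lowest, median and highest of 9), again below every HcRed sample, with a log2 difference of -3.42 (SE 0.41, adjusted p = 5.42e-09). KLK10 fell to 0, 2.12 and 9.28 CPM (log2 difference -2.0, SE 0.37, adjusted p = 0.000110) and TGM1 to 2.12, 5.57 and 8.46 CPM (-0.93, SE 0.27, adjusted p = 0.0195). SPRR1A had no read in the 9 NRG1 samples, at least 7.13-fold below HcRed (adjusted p = 0.00361), and IVL had 4 reads against 17 (-1.73, SE 0.51, adjusted p = 0.0242). Of the 4 members that averaged more than 1 read in both lines, SPRR1B, KLK10 and TGM1 were lower, where 3.59% of all genes tested were. SPRR1A, IVL and CNFN passed the filter through HcRed cells alone and are left out of that count. The IVL call ended without any of 4 samples, the NNK-treated HcRed replicates 1 and 3, the DMSO-treated NRG1 replicate 1 and the NNK-treated NRG1 replicate 2 (adjusted p up to 0.0577), and edgeR (0.0626) and DESeq2 (0.109) did not give it. SERPINB2 differed by 0.20 (95% interval -0.40 to 0.80).

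**Figure D4:**
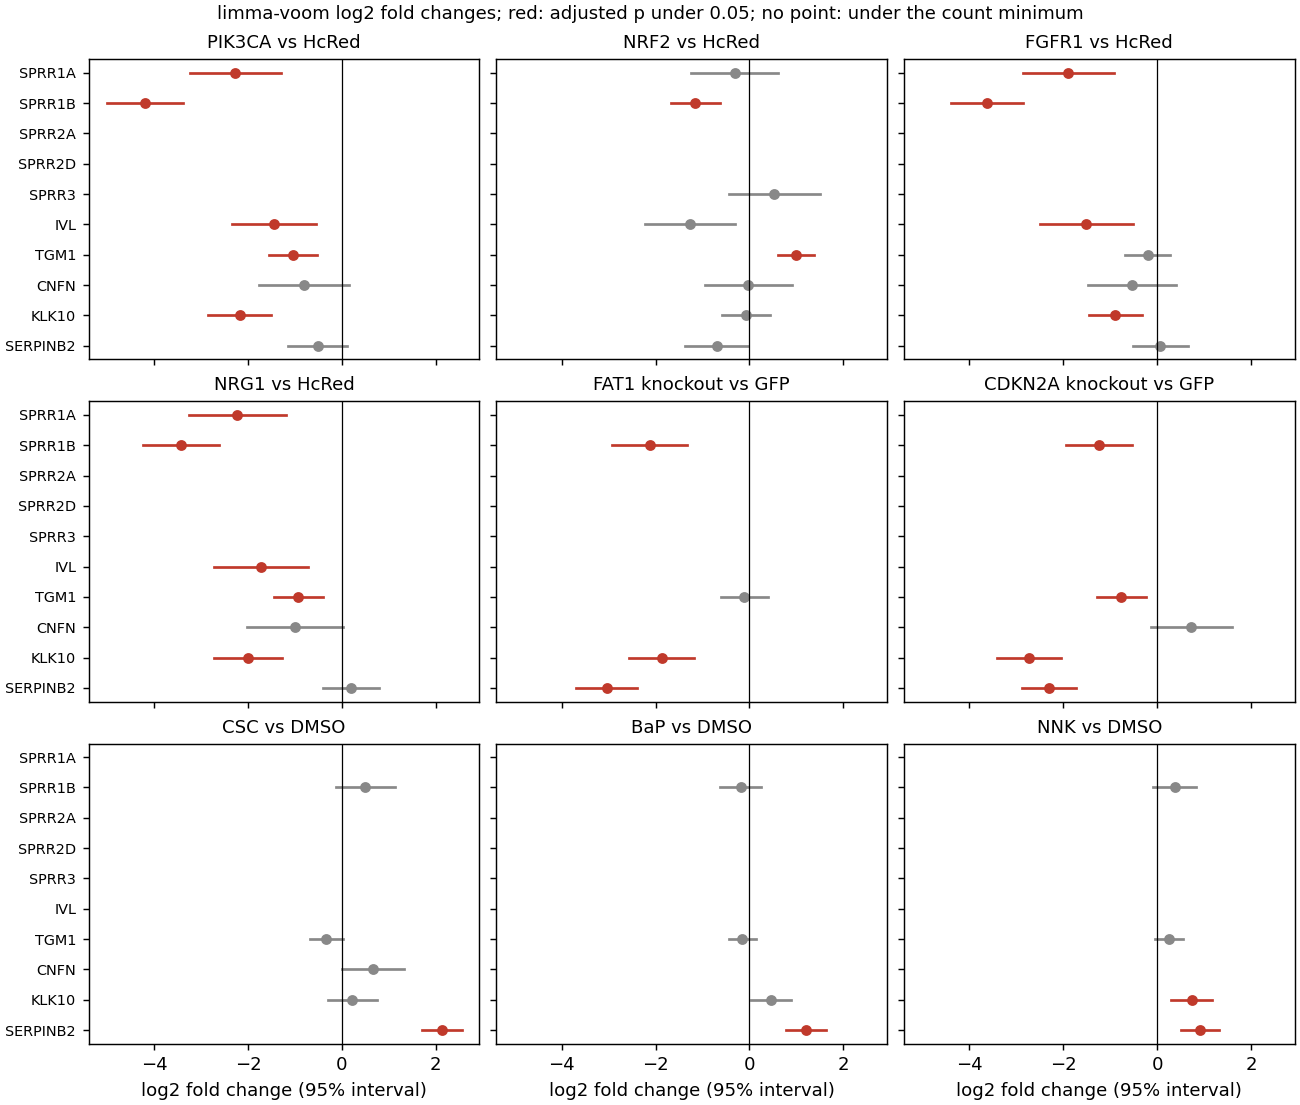
Log2 difference and 95% interval of each tested cornified envelope gene in 9 comparisons, in red where the adjusted p was under 0.05, with no point for genes too low to test. SPRR1B lies left of 0 in every comparison of a perturbed line with its control, TGM1 lies right of 0 with NRF2, and SERPINB2 lies right of 0 with each chemical.

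PIK3CA was then compared with the mean of the other overexpression lines, NRF2, FGFR1 and NRG1. HcRed samples were on neither side of this difference but were part of the fit. They entered the filter on low counts, the scaling and the estimate of spread. SPRR1B was lower in PIK3CA cells by a log2 difference of -1.50 (SE 0.35, adjusted p = 0.000778), TGM1 by -0.98 (SE 0.21, adjusted p = 0.000297) and KLK10 by -1.10 (SE 0.30, adjusted p = 0.00421). SPRR1B averaged 0.556 reads in PIK3CA cells, under the filter minimum, and 2.81 over the other lines. TGM1 and KLK10 were lower among the 3 members that averaged more than 1 read on both sides, where 7.85% of all genes tested were lower. CNFN (-0.34, adjusted p = 0.604) and SERPINB2 (-0.32, adjusted p = 0.429) did not pass. CNFN averaged 0.778 and 0.963 reads on the sides compared and reached the filter only with the HcRed samples. The NRF2 line is part of that mean, with SPRR1B at 7.34 ± 3.90 CPM (SD, n = 9) against 0.726 ± 1.05 in FGFR1, 1.57 ± 1.83 in NRG1 and 0.611 ± 0.774 in PIK3CA cells. In SPRR1B, TGM1 and KLK10 the PIK3CA line differed from the FGFR1 and NRG1 lines by less than the larger of their SDs, so that these low levels are not shown to be particular to PIK3CA cells.

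Because HcRed cells stood so high, the control lines were compared with each other, a comparison added after the values were seen. SPRR1B was at 0, 4.83 and 6.39 CPM (lowest, median and highest of 9) in GFP cells, below every HcRed sample. HcRed cells were higher by 2.02 on the log2 scale (SE 0.32, adjusted p = 2.13e-07) for SPRR1B, 1.53 (SE 0.50, adjusted p = 0.0109) for SPRR1A and 0.73 (SE 0.29, adjusted p = 0.0377) for KLK10. Of the 4 members that averaged more than 1 read in both lines, SPRR1B and KLK10 were higher in HcRed cells, where 18.4% of all genes tested were, and SPRR1A and CNFN passed the filter through HcRed cells alone. The KLK10 call held in 8 of 18 fits without 1 sample (adjusted p up to 0.0844). SERPINB2 differed the other way by -0.78 (adjusted p = 0.0517, and as low as 0.00745 without 1 sample). The vectors, and any other difference in how the control lines were made, cannot be told apart in this comparison.

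Against GFP cells, which lack the high SPRR1B of HcRed cells, PIK3CA cells were also lower for SPRR1B (log2 difference -2.28, SE 0.47, adjusted p = 3.69e-05), KLK10 (-1.43, SE 0.36, adjusted p = 0.000616) and SERPINB2 (-1.36, SE 0.31, adjusted p = 0.000167). SPRR1B had 5 reads in the PIK3CA and 25 in the GFP samples and passed the filter through GFP cells alone. Of the 3 members that averaged more than 1 read in both lines, KLK10 and SERPINB2 were lower, where 23.6% of all genes tested were. TGM1, at 1.31, 5.07 and 9.39 CPM in PIK3CA cells and 2.03, 7.73 and 12.5 CPM in GFP cells, differed by -0.56 (95% interval -1.14 to 0.01, adjusted p = 0.105).

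The knockouts were set against GFP cells over all 4 treatments. FAT1 encodes a large cadherin and CDKN2A encodes inhibitors of cell cycle kinases and of p53 turnover. The gene with the largest fall among the members in FAT1 cells was SERPINB2, at 0, 1.48 and 5.09 CPM (lowest, median and highest of 12) against 2.03, 15.3 and 31.9 CPM in GFP cells. The lowest 2 GFP samples reached into the FAT1 range, and the log2 difference was -3.04 (SE 0.33, adjusted p = 6.93e-13). KLK10, at 0, 1.58 and 4.68 CPM against 2.03, 5.34 and 12.8 CPM, fell by 1.87 on the log2 scale (SE 0.35, adjusted p = 6.94e-06). SPRR1B had 5 reads in FAT1 and 38 in GFP samples (log2 difference -2.13, SE 0.41, adjusted p = 1.01e-05). TGM1 differed by -0.11 (95% interval -0.60 to 0.39), so that 2 of the 3 members averaging more than 1 read in both lines were lower, where 23.9% of all genes tested were. SPRR1B passed the filter through GFP cells alone and is left out of that count.

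In CDKN2A cells KLK10 had 6 reads in 12 samples against 60 in GFP samples, with a log2 difference of -2.73 (SE 0.35, adjusted p = 3.91e-10). SERPINB2 was at 0, 2.57 and 11.1 CPM (lowest, median and highest of 12), a log2 difference of -2.30 (SE 0.29, adjusted p = 2.67e-10). SPRR1B (-1.24, SE 0.36, adjusted p = 0.00228) and TGM1 (-0.76, SE 0.27, adjusted p = 0.0124) fell as well. CNFN had 18 reads in CDKN2A and 7 in GFP samples and differed by 0.73 (adjusted p = 0.149). KLK10 passed the filter through GFP cells alone and CNFN through CDKN2A cells alone. The 3 members that averaged more than 1 read in both lines, SPRR1B, TGM1 and SERPINB2, were all lower, where 28.3% of all genes tested were. SERPINB2 was thus the 1 member called lower in both knockouts that averaged more than 1 read in all the lines compared. KLK10 and SPRR1B were also called lower in both, but KLK10 in CDKN2A and SPRR1B in FAT1 cells passed the filter through GFP cells alone. Both comparisons share the GFP samples.

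The chemicals moved SERPINB2 more than any other member tested. It was at 0, 2.87 and 14.4 CPM (lowest, median and highest of 24) with DMSO, 1.17, 19.6 and 42.8 CPM with CSC, 0, 5.71 and 18.7 CPM with BaP and 1.37, 4.70 and 29.2 CPM with NNK. Its mean was above that with DMSO in 8 of 8 lines with CSC, in 8 of 8 with BaP and in 7 of 8 with NNK. Over the 6 lines outside HcRed and PIK3CA, CSC raised it by 2.13 on the log2 scale (SE 0.22, adjusted p = 4.05e-14). BaP raised it by 1.21 (SE 0.21, adjusted p = 1.33e-06) and NNK by 0.91 (SE 0.21, adjusted p = 0.000126) over 8 lines. In HcRed and PIK3CA cells, given as a description for CSC, SERPINB2 went from 6.03, 5.76 and 3.93 CPM to 19.9, 22.5 and 40.2 CPM and from 2.97, 2.77 and 1.89 CPM to 42.4, 37.1 and 22.5 CPM.

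The other members answered the chemicals less or not measurably. With CSC, SERPINB2 was the 1 member of 5 tested that was called higher, where 23% of all genes tested were higher. SPRR1B differed by 0.50 (95% interval -0.12 to 1.1, adjusted p = 0.194), CNFN by 0.66 (0.00 to 1.33, adjusted p = 0.0991), KLK10 by 0.22 (-0.30 to 0.74) and TGM1 by -0.33 (-0.68 to 0.02, adjusted p = 0.125). Leaving out the CSC-treated NRF2 replicate 3 brought SPRR1B to an adjusted p of 0.0488, and leaving out replicate 1 brought TGM1 to 0.0458. With BaP it was 1 of 4 tested, where 26.4% of all genes tested were higher, and KLK10 differed by 0.46 (adjusted p = 0.0699, and 0.0243 to 0.19 without 1 sample). With NNK, KLK10 rose by 0.74 on the log2 scale (SE 0.22, adjusted p = 0.00332), which made 2 of 4 members higher, where 25.9% of all genes tested were. A correction for GC content and length took the KLK10 call away (adjusted p = 0.0830). KLK10 was at 0, 2.96 and 18.4 CPM (lowest, median and highest of 24) with DMSO and at 0, 3.87 and 20.4 CPM with NNK, and the groups overlapped. SPRR1B differed by -0.18 with BaP and by 0.38 with NNK (95% intervals -0.62 to 0.25 and -0.08 to 0.84).

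No member passed the threshold in a test of whether the effect of PIK3CA differed between treatments, where 0.175% of all genes tested did. None passed in the tests of whether the effect of CSC, BaP or NNK differed between lines either, where 0.979%, 0.25% and 0.174% of all genes tested did in limma. The edgeR and DESeq2 tests called none either. These tests had little power at this depth. In simulated counts the limma test of CSC by line recovered 0% of 2-fold and 8.5% of 4-fold changes in genes averaging 1 to 10 reads. A difference between lines may thus have gone uncalled, and the tests for PIK3CA, BaP and NNK were not simulated. Among the members only TGM1 for CSC by line had an unadjusted limma p under 0.05 (limma adjusted p = 0.433). TGM1 with CSC was at 1.17, 3.82 and 2.07 CPM in FAT1 cells, against 6.10, 9.76 and 12.3 CPM with DMSO.

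Comparisons within 1 treatment or 1 line, mostly of 3 samples against 3, were made where reads allowed it. SPRR1B was called lower in 12 of 20 comparisons of a line with its control within 1 treatment, KLK10 in 8, SERPINB2 in 8 and TGM1 in 1, where 6.94% of all gene tests in those 20 were lower. These counts keep members that may have passed the filter through the control alone, which favours a lower call. Over several treatments SPRR1B averaged 0.556 reads in PIK3CA, 0.778 in FGFR1 and 0.417 in FAT1 samples, and KLK10 averaged 0.5 in CDKN2A samples. The 8 calls of SERPINB2 were all in FAT1 or CDKN2A cells, where between 9.75% and 18.3% of genes were lower, and 11 of the 12 calls of SPRR1B were against HcRed, where between 0.526% and 3.93% were. The 1 call of a higher member was TGM1 in DMSO-treated NRF2 cells (log2 difference 1.21, adjusted p = 0.0210), where 6.71% of gene tests were higher. Of 22 comparisons of a chemical with DMSO within 1 line, SERPINB2 was called higher in 6 and KLK10 in 2, where 6.01% of gene tests were higher. CSC raised SERPINB2 in GFP (log2 difference 1.76), NRF2 (1.87), FGFR1 (1.65), NRG1 (3.39) and CDKN2A (2.62) cells, BaP raised it in NRG1 cells (2.57), and NNK raised KLK10 in HcRed (1.23) and FGFR1 (1.81) cells. TGM1 in CSC-treated FAT1 cells (-1.71) was the 1 call of a lower member, where 5.2% of gene tests were lower.

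Other genes of squamous differentiation were grouped in 5 lists, and many were too low to test. For PIK3CA against HcRed the tests covered 13 of 25 envelope, 3 of 7 transglutaminase and lipid envelope and 11 of 17 kallikrein and inhibitor genes. They also covered 9 of 13 keratin and junction genes and all 18 transcription regulators. Which line carried these genes past the filter was not determined. Against HcRed, PIK3CA cells were lower for 9 of 13 other envelope genes tested and higher for 1, where 10.2% and 10.8% of all genes tested were lower and higher. The median log2 difference of these 13 was -0.61, against -0.01 over all genes tested. S100A8, a calcium-binding protein of stressed epithelium, differed by -3.07 and S100A9, its partner, by -2.23. Of 9 suprabasal keratin and junction genes 8 were lower and none higher (median -1.48), with KRT16 at 8.53 ± 3.14 against 41.3 ± 8.15 CPM and KRT17 at 596 ± 83.1 against 1643 ± 280.3 CPM (SD, n = 9). Of 11 other kallikreins and serine protease inhibitors 8 were lower (median -1.11), among them SERPINB13, and of 18 transcription regulators 7 were lower and 3 higher, with NOTCH3 at -1.44 and FOSL1, an AP-1 subunit, at 0.71. Against GFP the fall was less uniform. There 4 of 12 envelope genes were higher and 7 lower, and 1 of 6 keratin and junction genes was higher and 3 lower. Kallikreins and inhibitors had 3 higher and 7 lower of 11, and transcription regulators 3 and 9 of 18. Over all genes tested 24.9% were higher and 23.6% lower in PIK3CA than in GFP cells.

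NRG1 cells were lower for 7 of 13 envelope genes and for 7 of 8 keratin and junction genes, where 3.59% of all genes tested were lower, with KRT16 at -2.06 and FOSL1 at 1.14. FGFR1 cells were lower for 5 of 12 and 7 of 10, where 4.51% were. In NRF2 cells 3 of 12 envelope genes were higher and 3 lower, where 9.53% and 9.83% of all genes tested were. There S100A8 differed by 0.78, and KRT16 (0.75) and KRT17 (0.45) rose while KRT6A fell (-0.42). In the knockouts KLK5, a kallikrein of the same cluster as KLK10, fell from 26.0 ± 5.50 CPM in GFP cells to 1.5 ± 1.31 CPM in FAT1 and 1.46 ± 1.24 CPM in CDKN2A cells (SD, n = 12). HcRed cells were above GFP cells for S100A8 (3.78) and KRT6A (0.87), but the lists did not all go that way. Of 12 envelope genes 5 were higher and 7 lower (median -0.31), and of 8 keratin and junction genes 6 were higher and none lower. Kallikreins and protease inhibitors had 3 higher and 4 lower of 12, and transcription regulators 3 and 6 of 18. Over all genes tested 18.4% were higher and 18.1% lower.

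Transcription regulators of squamous differentiation were also followed with the chemicals. Of 18 tested, 9 were higher and none lower with CSC, 11 and none with BaP, and 9 and 1 with NNK. Over all genes tested 23% were higher and 23.8% lower with CSC, 26.4% and 25.1% with BaP, and 25.9% and 25.8% with NNK. FOSL1 rose by 1.64, 1.25 and 1.07 on the log2 scale and JUNB, another AP-1 subunit, by 1.22, 0.81 and 0.68. Of 12 other envelope genes tested, 3 were higher and 5 lower with CSC, 3 and 3 with BaP, and 3 and 4 with NNK. The 3 higher of 12 are near the share over all genes, and the lists were not tested against each other. CSTA, a cysteine protease inhibitor of the envelope, and SCEL, sciellin, were lower with each chemical. The lists were written with earlier results of these data known, and these counts describe them.

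**Figure D5:**
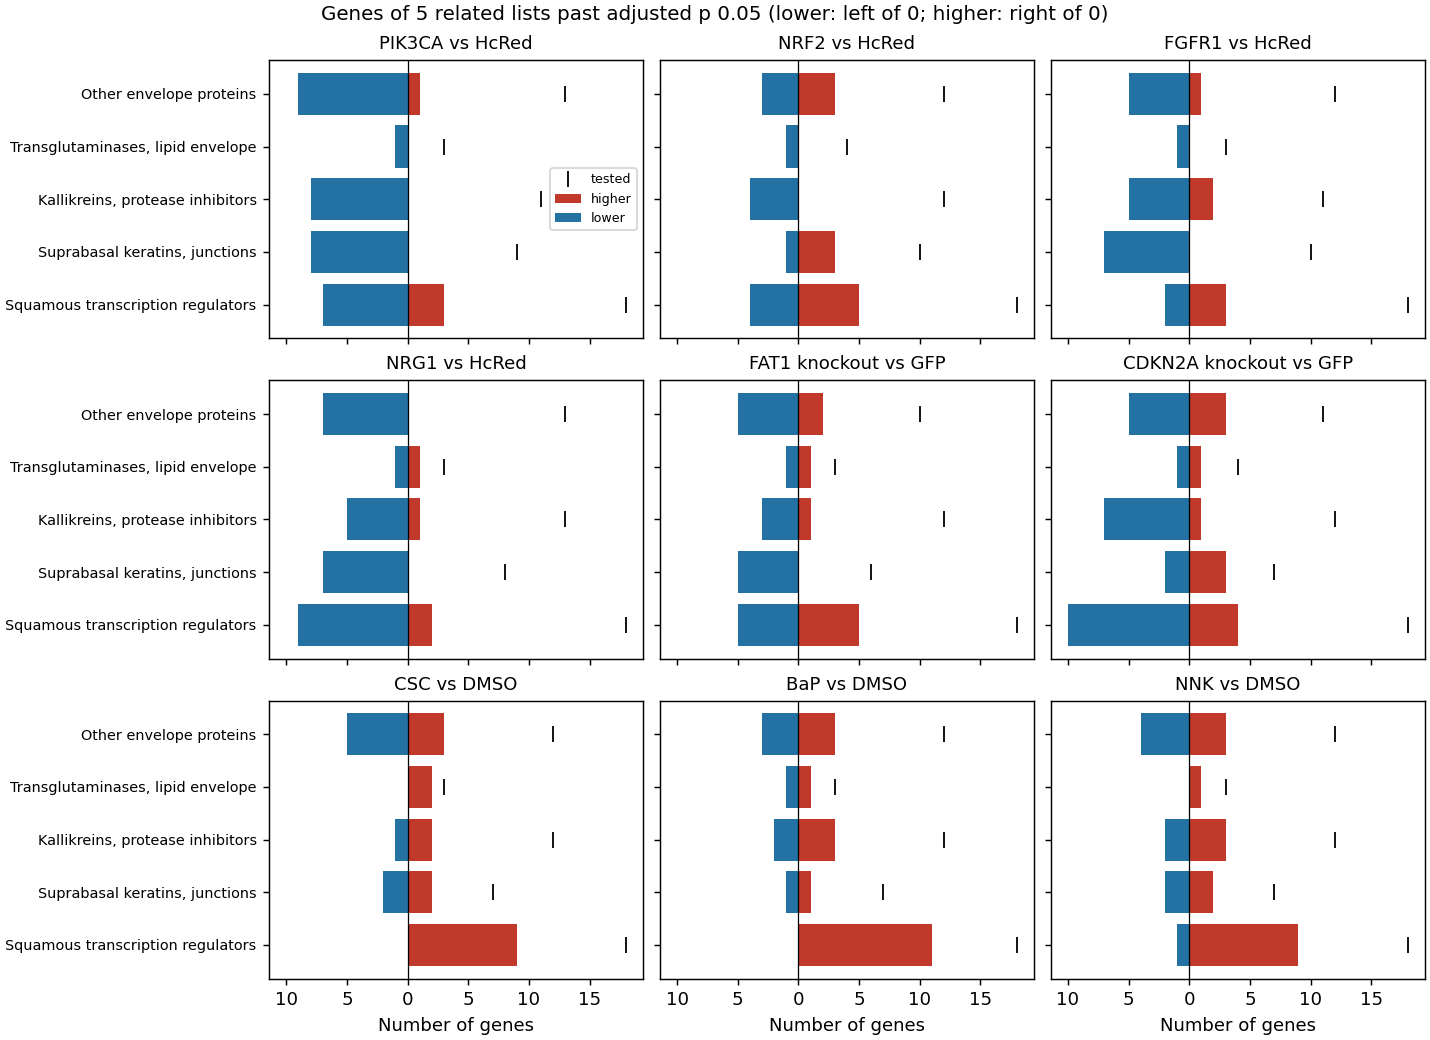
Number of genes called higher and lower in each list of related squamous genes for the comparisons over several treatments or lines, with lower calls in blue, higher calls in red and a black tick at the number tested. Lower calls prevail for keratin and envelope genes in PIK3CA and NRG1 cells against HcRed, and higher calls for transcription regulators with CSC, BaP and NNK.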

How the data were processed

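Sparse full length (SFL) RNA-seq libraries of AALE cells, 95 samples from 8 lines and 4 treatments, were analysed. Per the submitters' processing notes and the methods of the study, single reads of 75 bases were trimmed with cutadapt 1.12, checked with FastQC 0.11.5, aligned to hg19 with STAR 2.5.2b and assigned to RefSeq genes with featureCounts. The authors deposited counts, as whole numbers that had not been normalized. The strand setting of counting was not given in the sources used here, and reads of overlapping genes may be mixed. Reads without molecular identifiers are not independent molecules, so the floor of 3 counts covers counting error only.

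Counts were scaled by TMM in edgeR 4.0.16 under R 4.3.3, and CPM rest on the effective library size over 95 samples. The voom transformation and the moderated 2-sided test of limma 3.58.1 were applied to the samples of each comparison alone, over genes with a mean count above 1 in them. The fit of PIK3CA against the other overexpression lines also held the HcRed samples. P-values were adjusted by Benjamini-Hochberg over all genes tested, with a threshold of 0.05. Lines were compared with treatment as a covariate and chemicals with genotype as a covariate. Samples with CSC were kept out of comparisons with HcRed, and HcRed and PIK3CA samples out of those with CSC, since they entered the choice of genes. The alternatives tried were the quasi-likelihood test of edgeR, DESeq2 1.42.0, its size factors, other filters, a replicate block, a fit of all 95 samples, added CSC samples, summed close copies and leaving out each sample. A correction for GC content and length, over the 86.9% of symbols with a value, was chosen after seeing the data. The tests were tried on simulated data. Beside the members and perturbed genes, the genes named were up to 4 called genes per list and comparison, those of largest change among genes averaging 10 reads or more, and the 5 genes most correlated with SPRR1B. The members, lists and tests were chosen with earlier results of these data known. Annotation came from GENCODE on GRCh37 and promoters from RefSeq on GRCh38.p14, used for letters only.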

Additional observations from a re-analysis of the deposited data

Results flagged for a closer look

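Of the results above, 3 were singled out because PIK3CA cells differed from the mean of the other overexpression lines by a test of the difference itself. Relative to the mean of NRF2, FGFR1 and NRG1 cells over DMSO, BaP and NNK, the log2 difference in PIK3CA cells was -1.50 for SPRR1B, -0.98 for TGM1 and -1.10 for KLK10. SPRR1B was at 0.611 ± 0.774 CPM in PIK3CA cells (SD, n = 9), 7.34 ± 3.90 in NRF2 cells, 0.726 ± 1.05 in FGFR1 cells and 1.57 ± 1.83 in NRG1 cells. TGM1 was at 5.47 ± 2.69 CPM in PIK3CA cells, 22.7 ± 6.0 in NRF2 cells, 11.5 ± 6.17 in FGFR1 cells and 5.69 ± 1.84 in NRG1 cells. KLK10 was at 2.27 ± 1.21 CPM in PIK3CA cells, 10.9 ± 4.84 in NRF2 cells, 5.95 ± 4.42 in FGFR1 cells and 3.19 ± 2.91 in NRG1 cells. For each of the 3 genes the PIK3CA line differed from the FGFR1 and NRG1 lines by less than the larger of their SDs and from the NRF2 line by more, so the test against the mean does not set PIK3CA apart from FGFR1 or NRG1. SPRR1B averaged 0.556 reads in PIK3CA cells, under the minimum of the filter on low counts, and 2.81 over the other lines. The HcRed samples were also in this fit.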

How the results depend on the processing

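Members called in each comparison were counted again under each alternative and with each sample left out. Counts here keep members that passed the filter through 1 side alone, so stable counts do not back those calls. Of all genes tested in the main fits, 21% were called for PIK3CA, 19.4% for NRF2, 9.61% for FGFR1 and 7.43% for NRG1. Shares were 48.9% for FAT1, 57.6% for CDKN2A, 46.8% for CSC, 51.4% for BaP and 51.7% for NNK. They were 18.4% for PIK3CA against the other lines, and 36.5% for HcRed and 48.5% for PIK3CA against GFP. Raising the filter to a mean of 10 reads left no member to call against HcRed in PIK3CA (0 against 5), FGFR1 (0 against 4) and NRG1 (0 against 5) cells, against GFP in FAT1 (0 against 3), CDKN2A (0 against 4), HcRed (0 against 3) and PIK3CA (0 against 3) cells, or for CSC, BaP and NNK (0 each), 1 in NRF2 cells, 1 for PIK3CA against the other lines, 5 (of 30) in the 20 comparisons within 1 treatment and 4 (of 9) in the 22 within 1 line, since few or no members reach that depth. DESeq2 gave 14 and 3 in those last 2 sets. One fit of all 95 samples gave 3 for PIK3CA, 2 for FGFR1, 3 for NRG1, 2 for CSC and 2 for BaP. Without a filter 3, 6 and 6 members were called for CSC, BaP and NNK, with all 10 members tested. Counted reads over all lines averaged 1071913 with DMSO, 970872 with CSC, 870730 with BaP and 853732 with NNK. Whether the added calls follow depth was not tested. Adding HcRed and PIK3CA samples gave 2 for CSC, where CNFN was called. The GC content and length correction gave 2 for CSC, 2 for BaP and 1 for NNK. The causes of the other changes were not tested, and the shares of all genes called under the alternatives are not given here.

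With the replicate number as a block, 2 members were called for BaP, KLK10 being added (adjusted p = 0.0388), and IVL was lost in FGFR1 cells (0.0508). Deviations of samples with the same number correlated at a mean of 0.0034 to 0.029 by comparison, so the numbers do not pair samples.

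Leaving out each sample gave 4 to 5 called members for PIK3CA, 2 to 4 for NRF2, 1 to 4 for FGFR1, 3 to 5 for NRG1, 3 to 3 for FAT1, 4 to 4 for CDKN2A, 1 to 2 for CSC, 1 to 2 for BaP, 2 to 2 for NNK, 3 to 3 for PIK3CA against the other lines, 2 to 5 for HcRed against GFP, 3 to 3 for PIK3CA against GFP, 26 to 31 in the 20 comparisons and 7 to 10 in the 22.

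Among 36 called results of single members, 273 of 282 alternatives kept the direction and the call, and 9, of IVL against HcRed or of KLK10, kept the direction only. Directions that turned belonged to uncalled results, namely SERPINB2 in PIK3CA (0.0037) and FGFR1 (-0.35) cells and KLK10 in NRF2 cells (0.0212) with CSC samples added, CNFN in NRF2 cells without a filter (0.19), with the block (0.0557) and in the fit of all samples (0.22), SPRR1B for BaP in that fit (0.0447) and TGM1 for NNK with the GC correction (-0.0753). By log2 CPM without length, SPRR1B was place 4 instead of 1 among the members.

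Depth limits these genes, since 3 reads amount to between 1.42 and 10.4 CPM in a sample, and SPRR2A, SPRR2D and mostly SPRR3 could not be tested, so that a difference in them was not detectable at this depth.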

Other observations

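HcRed and NRF2 cells shared most of the SPRR reads of the series. With CSC, the 3 HcRed samples held 14 reads of SPRR1A, 9 of SPRR3 and 19 of CNFN, and the 3 NRF2 samples held 3, 8 and 8. CNFN in HcRed cells was at 0.861, 0 and 0 CPM with DMSO and at 4.14, 6.34 and 5.03 CPM with CSC, values that belong to samples used to choose the genes and are given without a test. IVL with CSC was at 4.14, 2.82 and 3.02 CPM in HcRed cells and at 5.30, 1.44 and 2.45 CPM in NRF2 cells, while with BaP no NRF2 sample held a read of it.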
